A study of Rattus norvegicus with 6 samples.

Results

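The antioxidant enzymes and Nrf2 targets examined here were 10 genes, chosen by name from the 30957 genes of the deposited expression table. They comprised the superoxide dismutases Sod1, Sod2 and Sod3, catalase (Cat), the transcription factor Nrf2 (gene Nfe2l2) and 5 of its targets, Hmox1, Nqo1, Gclc, Gclm and Txnrd1. Each name matched 1 row of the table, and all 10 passed the filter on low counts, which kept 12393 genes. Crushed sciatic nerves (n = 3) were compared with intact nerves (n = 3) of Sprague Dawley rats. The paper calls the intact nerves contralateral, and their labels read normal sciatic nerve tissue. The methods describe adult male rats, a forceps crush, and collection of the proximal stumps and of the intact nerves at 4 dpi, whereas the sample labels give no time point, age or sex. The methods describe no transgene or test drug for the sequenced nerves, and rats were anesthetized with pentobarbital for the crush. RNA-seq counts per gene were deposited for each nerve without normalization, and the question was whether the antioxidant genes differ between crushed and intact nerves.

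Superoxide is converted to hydrogen peroxide by the superoxide dismutases, of which Sod1 acts in the cytosol, Sod2 in mitochondria and Sod3 outside the cell. Catalase then breaks hydrogen peroxide down to water and oxygen. Nrf2 is held back by Keap1 in unstressed cells and, once released by oxidants, binds antioxidant response elements (AREs) of genes for glutathione synthesis, thioredoxin reduction, quinone reduction and heme breakdown. Sod2 is also a well-known target of NF-κB, a transcription factor of the inflammatory response, and Nfe2l2 and Hmox1 are widely studied in injured nerves, where Hmox1 is often carried by macrophages.

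Counts on genes summed to between 24844371 and 27139360 per nerve, and 3 counts, the floor used for detection, corresponded to between 0.110 and 0.121 normalized CPM (counts scaled to the library size after TMM normalization). The libraries did not hold several defining genes of the labelled tissue. Of 13 Schwann cell markers in the table, 6 had more than 3 counts in every nerve, whereas Mag and Gap43 had 0 counts and Sox10, S100b and Mbp had at most 3 counts in any nerve. The summed level of these markers was 114 to 116 normalized CPM in intact and 115 to 119 in the crushed group. Macrophage markers summed to between 3.98 and 5.61 normalized CPM in intact and between 4.43 and 6.30 in the crushed group, with 6 of 14, among them Ptprc, Cd163 and Adgre1, at 0 counts in all nerves. All 6 red cell markers in the table had 0 counts, and 7 markers of T cells and neutrophils summed to at most 0.316 normalized CPM. The 8 proliferation genes summed to between 3459 and 3684 normalized CPM in intact and between 3334 and 3459 in the crushed group. Mki67 alone had a mean of 1572 normalized CPM in intact and 1452 in the crushed group, and 0 of the 8 rose or fell. Whether the libraries hold the labelled tissue was not tested. Fibroblast markers summed to between 966 and 1012 normalized CPM in intact and between 1372 and 1424 in the crushed group, and 4 of 10 were at 0. Fbn1 made up most of this sum, with a mean of 788 normalized CPM in intact and 1223 in the crushed group. A count of 0 in this table was no proof of absence, since the widely used genes Hprt1 and Myh9, picked out after their values were seen, were also listed at 0 in all 6 nerves while Actb had between 126540 and 149037 counts. In bulk nerves, fewer cells of a type and less RNA per cell cannot be told apart, and the part of cell makeup in the results below was not tested.

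The 10 genes differed in level, judged by the deposited FPKM values, which take gene length into account. In intact nerves Sod1 was the highest of the 10 at 265 ± 17.2 FPKM (SD, n = 3), followed by Sod3 at 159 ± 5.86. Next came Txnrd1 (77.4 ± 1.73 FPKM), Cat (74.7 ± 3.34) and Nfe2l2 (72.1 ± 1.3), and in this order the ranges of neighbouring genes overlapped. Gclc (39.6 ± 1.72 FPKM), Nqo1 (38.5 ± 1.72), Sod2 (36.8 ± 4.03) and Hmox1 (36.3 ± 1.77) formed a further run of neighbours with overlapping ranges, and Gclm was the lowest at 26.9 ± 2.18 FPKM. Mitochondrial Sod2 was thus the lowest of the superoxide dismutases in intact nerves. In crushed nerves Sod1 (254 ± 6.40 FPKM), Sod3 (141 ± 2.21) and Txnrd1 (82.8 ± 1.05) again came first. Below them Nfe2l2 stood at 66.6 ± 0.0595 FPKM, Cat at 60.7 ± 1.46 and Sod2 at 43.2 ± 1.43, and the ranges of these neighbours were apart. Hmox1 (36.9 ± 1.54 FPKM) overlapped Gclc (36.2 ± 1.5), and Nqo1 (29.7 ± 4.02) overlapped Gclm (27.0 ± 0.876). From intact to crushed nerves Sod2 moved from the eighth to the sixth place of the 10 and Hmox1 from the ninth to the seventh, while Nqo1 moved from the seventh to the ninth and Gclc from the sixth to the eighth. In intact nerves these 4 places lay within the run of overlapping ranges.

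Between the groups, 3 of the 10 genes fell in crushed nerves, namely Cat, Nqo1 and Sod3, and none rose when edgeR's adjusted p had to be under 0.05. The count of 3 was 1, Cat alone, without crushed nerve 1, without crushed nerve 2, without intact nerve 3 and in both limma fits on FPKM, and it was 2 without any other nerve. Over all genes tested, 3.12% were called in either direction, 1.65% fell and 1.47% rose. With the limits of the study's methods, a log2 fold change beyond 1 in either direction with p under 0.001, 0 of the 10 were called against 0.282% of all genes, and DESeq2 also called 0 at these limits. At an unadjusted p under 0.05, 7 of the 10 differed, of which 5 were lower and 2 higher in crushed nerves, and this p was reached by 16.2% of all genes tested. The crushed nerves lay entirely on 1 side of the intact nerves in the same number of members, 7 of 10, while this held for 23.0% of all genes tested. The median log2 fold change of the 10 was -0.11, beside -0.0017 for all genes tested, and 3 of the 10 had a value above 0. Fibroblast markers moved with the groups too, and of the 6 tested Fbn1 rose (log2 fold change 0.63) while Col1a1, Col3a1 and Pdgfrb fell (-0.69, -1.76 and -0.77), with Thy1 lower without overlap (-0.23, adjusted p = 0.0552). Of the 6 Schwann cell markers tested, Erbb3 fell (log2 fold change -0.59, adjusted p = 0.0222) and Prx was lower without overlap (-0.20, adjusted p = 0.166). The part of these markers in the values of the 10 genes was not tested.

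**Figure D1:**
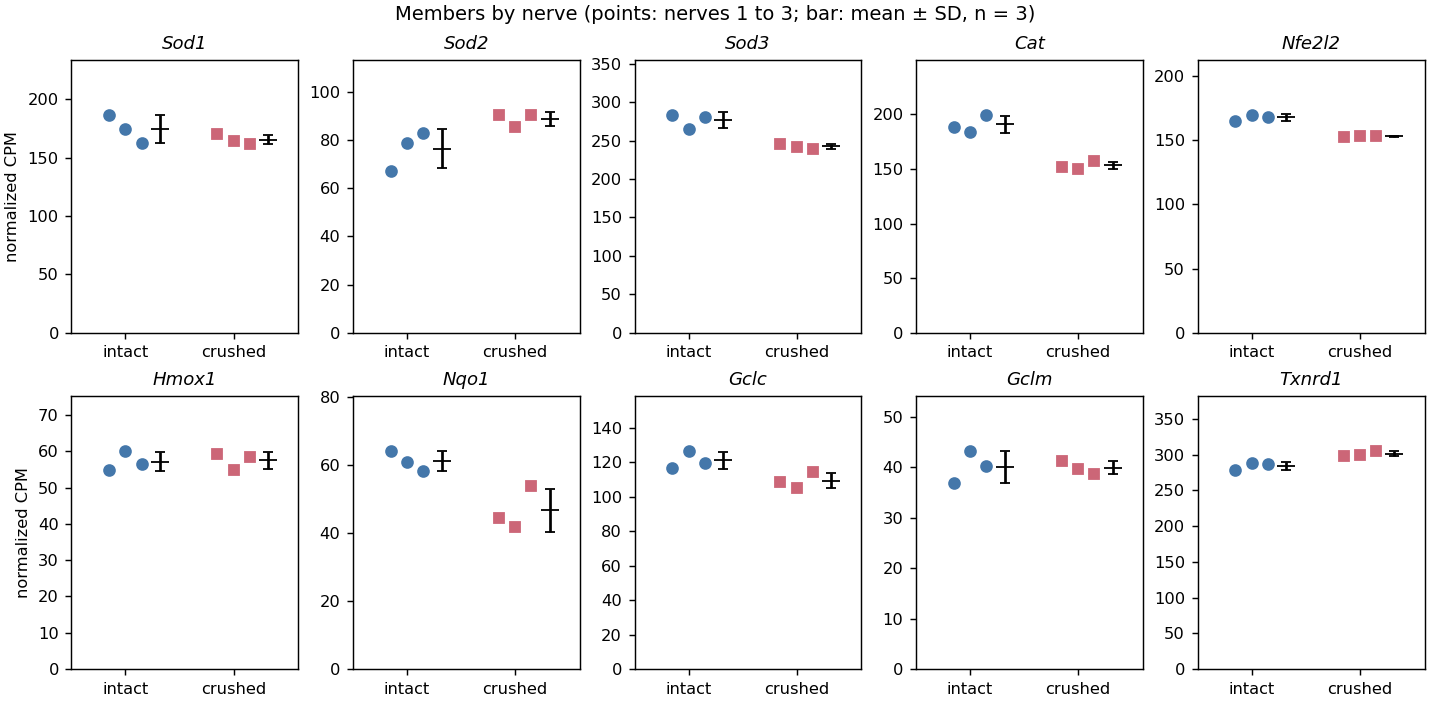
Normalized CPM of the 10 genes in each nerve, with intact nerves as blue circles, crushed nerves as red squares, and the mean ± SD of 3 nerves as black bars on axes that start at 0. Cat, Nqo1 and Sod3 lie lower in all 3 crushed nerves, Sod2 lies higher in all 3, and Hmox1 and Gclm overlap.

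Catalase had the smallest adjusted p of the 10 genes. Cat, on chromosome 3 from 93379874 to 93412058, had 188, 184 and 200 normalized CPM in nerves 1, 2 and 3 of the intact group and 152, 150 and 157 in those of the crushed group. The highest crushed nerve lay well below the lowest intact nerve. The fitted log2 change was -0.32 ± 0.0439 (standard error), with an adjusted p = 0.00248 in edgeR, a level 0.803 times that of intact nerves. Cat was called in 13 of 13 fits with another setting or without 1 nerve.

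Among the superoxide dismutases, the extracellular Sod3 fell. Sod3, on chromosome 14 from 60958592 to 60964324, had 284, 265 and 281 normalized CPM in the intact group and 246, 242 and 239 in the crushed group, without overlap. The fitted log2 change was -0.19 ± 0.0409 (standard error, edgeR adjusted p = 0.0322), and Sod3 was called in 6 of 13 other fits, with adjusted p between 0.00891 and 0.143. Its call was lost without crushed nerve 1, 2 or 3 (adjusted p of 0.114, 0.143 and 0.129) and without intact nerve 3 (0.0941), and in the limma fits on log2(FPKM + 0.1) and log2(FPKM + 1) (0.0910 and 0.0879). The cytosolic Sod1, on chromosome 11 from 30363280 to 30368862, had 187, 175 and 163 normalized CPM in the intact group and 170, 164 and 162 in the crushed group. These ranges overlapped, and the log2 fold change of -0.08 had a 95% interval from -0.19 to 0.035 (adjusted p = 0.491).

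The mitochondrial Sod2 was the only superoxide dismutase with a higher value in crushed nerves, but it did not pass the test. Sod2, on chromosome 1 from 47914759 to 47921587, had 67.3, 78.6 and 83.0 normalized CPM in the intact group and 90.2, 85.4 and 90.5 in the crushed group. The groups did not overlap, with intact nerve 1 the lowest of the 6. The fitted log2 change was 0.22 ± 0.0704 (standard error, 95% interval from 0.062 to 0.37 before adjustment, adjusted p = 0.149). Without intact nerve 1 it was 0.14, and over all 13 other fits its adjusted p lay between 0.0653 and 0.368.

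Of Nrf2 and its 5 targets, Nqo1 alone passed the test. Nfe2l2, on chromosome 3 from 62497571 to 62524996, had 165, 170 and 168 normalized CPM in the intact group and 153, 153 and 153 in the crushed group. The groups did not overlap, yet the log2 fold change of -0.13 did not pass the test (95% interval from -0.21 to -0.048, adjusted p = 0.102). Nqo1, which encodes a quinone reductase and lies on chromosome 19 from 38422164 to 38437180, had 64.2, 61.0 and 58.3 normalized CPM in the intact group and 44.3, 41.9 and 53.8 in the crushed group. Its values in crushed nerves were the most spread of the 10 relative to their mean, with crushed nerve 3 nearest to the intact nerves. Its fitted log2 change was -0.39 ± 0.0851 (standard error, edgeR adjusted p = 0.0337), the largest in size of the 10, and it was -0.50 without crushed nerve 3. Nqo1 was called in 5 of 13 other fits, with adjusted p between 0.000496 and 0.150. Its call was lost without crushed nerve 1 or 2 (adjusted p of 0.150 and 0.130) and without intact nerve 1, 2 or 3 (0.0713, 0.0980 and 0.0515), and in the same limma fits (0.0899 and 0.0919).

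Neither subunit gene of glutamate-cysteine ligase, the rate-limiting enzyme of glutathione synthesis, passed the test, and the difference between the subunits was not tested. The catalytic subunit gene Gclc, on chromosome 8 from 85059051 to 85097468, had 117, 127 and 120 normalized CPM in the intact group and 109, 105 and 114 in the crushed group. These did not overlap, with a log2 fold change of -0.15 that did not pass the test (95% interval from -0.25 to -0.039, adjusted p = 0.160). The modifier subunit gene Gclm, on chromosome 2 from 225827504 to 225847874, had 37.0, 43.3 and 40.2 normalized CPM in the intact group and 41.3, 39.6 and 38.8 in the crushed group. Its crushed nerves lay within the range of the intact ones, and the log2 fold change was -0.0091 (95% interval from -0.16 to 0.14, adjusted p = 0.963), with a sign that changed between settings.

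Hmox1, which encodes the inducible heme oxygenase, did not differ beyond the spread between nerves. It lies on chromosome 19 from 14508616 to 14515456 and had 54.9, 60.2 and 56.5 normalized CPM in the intact group and 59.2, 54.8 and 58.4 in the crushed group. The log2 fold change was 0.0078, with a 95% interval from -0.12 to 0.13 (adjusted p = 0.962) and a sign that changed in 3 of the fits without 1 nerve. In the same libraries the macrophage markers summed to at most 6.30 normalized CPM and the red cell markers to 0. Any link between these markers and the Hmox1 values was not tested, and a count of 0 here was no proof of absence. Txnrd1, which encodes the cytosolic thioredoxin reductase and lies on chromosome 7 from 26946125 to 26984400, had 279, 289 and 287 normalized CPM in the intact group and 299, 300 and 306 in the crushed group. All its crushed nerves lay above the intact ones by a small amount, a log2 fold change of 0.08 (95% interval from 0.00047 to 0.16, adjusted p = 0.306). Among the 5 targets, 1 therefore fell and 4 did not pass the test, and the median of their log2 fold changes was -0.0091.

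**Figure D2:**
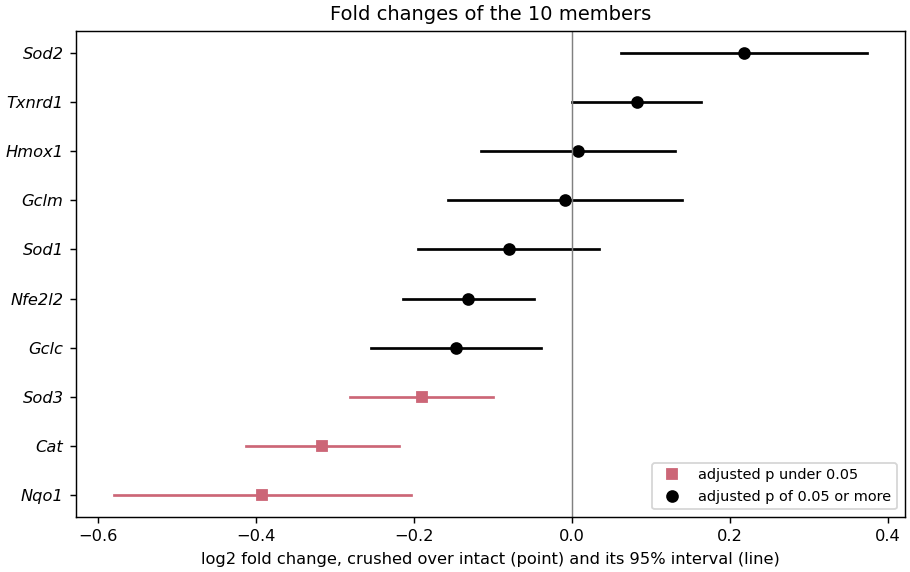
Log2 fold changes of the 10 genes, crushed over intact, as points with unadjusted 95% intervals from edgeR as lines, ordered by value. Cat, Nqo1 and Sod3 (red squares) passed an adjusted p of 0.05, and Sod2 had the highest value at 0.22.

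Sod2 was then set against each Nrf2 target within the same nerve, which removes the scaling of the library. The ratio of Sod2 to Nqo1 in normalized CPM was 1.05, 1.29 and 1.42 in the intact group and 2.03, 2.04 and 1.68 in the crushed group. The log2 ratio was higher by 0.62 in crushed nerves, from 0.31 ± 0.225 to 0.93 ± 0.159 (SD, n = 3; exact permutation test, two-sided, p = 0.1). The ratio of Sod2 to Gclc was 0.576, 0.620 and 0.692 in the intact group and 0.829, 0.811 and 0.792 in the crushed group, a difference of 0.37 on the log2 scale. For Hmox1 the ratio was 1.23, 1.31 and 1.47 in the intact group and 1.52, 1.56 and 1.55 in the crushed group, a log2 difference of 0.21. For Gclm it was 1.82, 1.82 and 2.06 against 2.18, 2.16 and 2.33, a log2 difference of 0.23. In these 4 ratios every crushed nerve lay above every intact nerve. Each had p = 0.1 in the exact permutation test, the smallest p that 3 nerves against 3 can give, and 0.125 after adjustment over the 5 ratios, so the design could not reach 0.05.

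The ratio of Sod2 to Txnrd1 overlapped between the groups. It was 0.242, 0.272 and 0.289 in the intact group and 0.302, 0.285 and 0.296 in the crushed group, a log2 difference of 0.14 (exact permutation test, p = 0.2). Without intact nerve 1, in which Sod2 was lowest, this difference was 0.069. The other 4 differences stayed above 0 when any 1 nerve was left out, at their lowest 0.16 for Hmox1 and 0.19 for Gclm. Since all 5 ratios share the Sod2 values, they are not independent of each other.

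**Figure D3:**
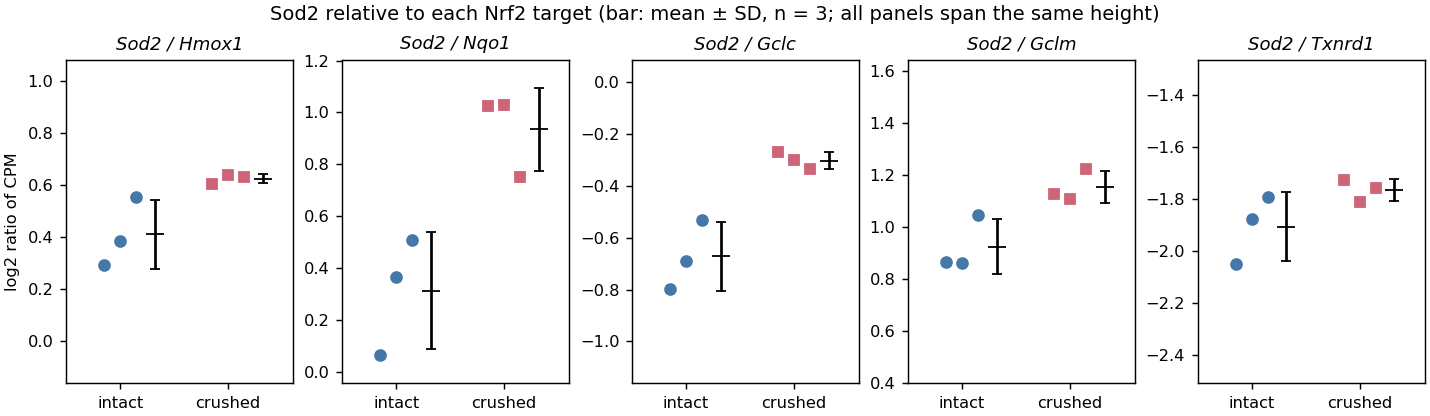
Log2 ratio of Sod2 to each of the 5 Nrf2 targets in normalized CPM by nerve (blue circles intact, red squares crushed, black bars mean ± SD of 3 nerves), with panels of equal height and different offsets. The crushed nerves lie above the intact nerves for Hmox1, Nqo1, Gclc and Gclm and overlap them for Txnrd1.

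Most genes tested of the NF-κB target list rose. Of its 23 genes in the table, 18 were tested, and the rest, among them Vcam1 and Il6, were too low to test. Of the 18, 15 rose and 0 fell, while 1.47% of all genes tested rose. The median of the 18 log2 fold changes was 0.82, and 3 genes (Nfkbib, Rel and Ptgs2) did not pass the test. This list was written with these results known, and its count is a description. Nfkbia, which encodes an inhibitor that NF-κB itself induces, had 839, 844 and 729 counts in the intact group and 2668, 2689 and 2506 in the crushed group, a log2 fold change of 1.65 (edgeR adjusted p = 1.40e-07). Tnfaip3, which encodes the A20 inhibitor of NF-κB, had a log2 fold change of 0.97 (edgeR adjusted p = 1.96e-05). The values were 1.79 for Birc3, a regulator of cell survival (adjusted p = 2.89e-06), and 0.82 for the adhesion molecule Icam1 (adjusted p = 3.52e-05). The precursor gene Nfkb2 (0.75) and the subunit gene Relb (1.85) also rose. Of the 15 that rose, Nfkb1 had the lowest log2 fold change at 0.33, and the 3 that did not pass the test had 0.22 (Rel), 0.15 (Nfkbib) and 0.0012 (Ptgs2), beside 0.22 for Sod2. The difference between Sod2 and these genes was not tested.

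By edgeR, other genes of the Nrf2 pathway were called about as often as genes at large, of which 3.12% were called. Of 10 tested regulators and partners of Nrf2, 0 rose and 0 fell at an adjusted p under 0.05, DESeq2 gave the same count, and 1, the repressor gene Bach2, had an unadjusted p under 0.05. Keap1, the inhibitor of Nrf2, had 39.9, 37.8 and 37.9 normalized CPM in the intact group and 36.8, 39.5 and 40.3 in the crushed group, a log2 fold change of 0.011 (adjusted p = 0.949). Of 26 other Nrf2 targets tested, 1 fell and 0 rose. DESeq2 called 3 of the 26, beside 512 of all 12393 genes. A log2 fold change above 0 was found in 8 of the 26, against 49.4% of all genes tested, and the median was -0.050. The gene that fell was Gstp1, which encodes a glutathione transferase. It had 183, 193 and 177 normalized CPM in the intact group and 151, 153 and 143 in the crushed group, without overlap, and a fitted log2 change of -0.31 ± 0.0461 (standard error, edgeR adjusted p = 0.00386). Gstp1 belongs to a multigene family whose reads could be shared between copies.

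Of 28 tested peroxidases and thiol antioxidants, 1 rose and 0 fell, a share near the 3.12% of all genes, and the median log2 fold change was 0.021. The gene that rose was Mt2A, which encodes a metallothionein, a small protein that binds metals through its cysteines. It had 100.3, 85.0 and 94.5 normalized CPM in the intact group and 151, 130 and 139 in the crushed group, and its fitted log2 change was 0.58 ± 0.0689 (standard error, edgeR adjusted p = 0.000857). The crushed nerves lay far above the intact ones, but metallothionein genes are similar in sequence and could share reads. Of 16 genes for sources of superoxide and peroxide, 6 were tested and 0 were called by edgeR or DESeq2, with 0 at an unadjusted p under 0.05. The other 10 were too low to test, among them Cyba and Ncf4, which encode subunits of the phagocyte oxidase and were listed at 0 in every nerve.

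**Figure D4:**
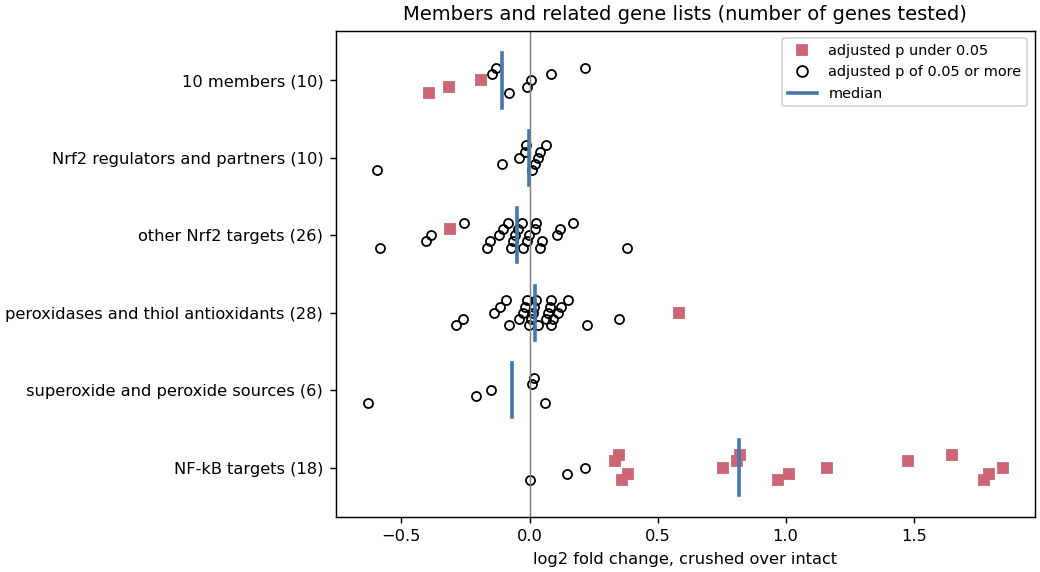
Log2 fold changes, crushed over intact, of each gene tested in the 10 members and 5 related lists, with red squares for an adjusted p under 0.05, open circles for other genes and blue lines for medians. Of the NF-κB targets 15 of 18 are red and lie right of 0, while the members have their 3 red squares left of 0.

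Sod2 followed a pattern over the 6 nerves that was shared by genes of other kinds. The 3 genes tested whose log2 normalized CPM had the highest Pearson correlation with Sod2 were Styk1 (r = 0.992), Elovl6 (r = 0.991) and Mcm7 (r = 0.990). These values come from 6 nerves in 2 groups and were the highest of 12393 genes, so they only describe likeness. In each of the 3, as in Sod2, intact nerve 1 was the lowest of the 6 nerves. None of the 3 passed the test between the groups, with adjusted p of 0.264 for Styk1, 0.127 for Elovl6 and 0.385 for Mcm7.

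Promoter sequences were available for 8 of the 10 genes, in 9 windows of RefSeq (build GRCr8) from 250 bases before to 50 bases after a transcription start, and none was matched for Sod3 and Hmox1. Promoters of Sod2, Cat and Nqo1 are shown because Sod2 was the gene to be contrasted and the others fell. Capitals mark the ARE core TGACNNNGC, the CCAAT box CCAAT and the GC box GGGGCGGGG, searched on both strands, and the sequences run 5′ to 3′ along the strand of the gene. The windows lie on the minus strand at chr1:50050119-50050418 for Sod2, chr3:110329477-110329776 for Cat and chr19:52220218-52220517 for Nqo1.
Sod2: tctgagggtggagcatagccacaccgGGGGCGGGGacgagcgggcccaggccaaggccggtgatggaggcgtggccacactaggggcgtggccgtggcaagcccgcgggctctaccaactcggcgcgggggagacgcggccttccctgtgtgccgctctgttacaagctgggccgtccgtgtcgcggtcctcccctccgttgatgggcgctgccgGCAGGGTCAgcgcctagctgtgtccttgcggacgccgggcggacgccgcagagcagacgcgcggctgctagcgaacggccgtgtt
Cat: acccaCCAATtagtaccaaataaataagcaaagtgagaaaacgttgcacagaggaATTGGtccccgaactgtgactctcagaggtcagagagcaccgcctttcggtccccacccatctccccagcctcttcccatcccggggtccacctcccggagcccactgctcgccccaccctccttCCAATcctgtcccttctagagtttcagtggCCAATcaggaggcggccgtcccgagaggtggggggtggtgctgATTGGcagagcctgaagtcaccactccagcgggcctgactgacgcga
Nqo1: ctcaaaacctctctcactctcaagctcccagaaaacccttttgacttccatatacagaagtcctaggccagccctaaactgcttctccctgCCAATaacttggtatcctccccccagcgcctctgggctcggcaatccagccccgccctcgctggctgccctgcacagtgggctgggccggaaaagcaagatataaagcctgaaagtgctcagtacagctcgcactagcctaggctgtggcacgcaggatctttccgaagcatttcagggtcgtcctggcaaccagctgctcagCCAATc

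The Sod2 window held a GC box from position -224 and an ARE core on the opposite strand from position -35, counted from the start. The Cat window held 5 CCAAT boxes, 3 on the strand of the gene and 2 on the opposite strand, and the Nqo1 window held 2. Among all 33469 promoter windows, 37.5% held a CCAAT box, 12.1% an ARE core and 9.73% a GC box. The ARE core was found in 4 of the 8 genes, the other three being Gclm, Txnrd1 and Nfe2l2, given here with the bases around it. It lies on the opposite strand in Gclm and Txnrd1, where it reads reversed, and on the strand of the gene in Nfe2l2.
Gclm: tgcggtttctGCTTAGTCAttgtcttcca
Txnrd1: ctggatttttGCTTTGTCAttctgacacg
Nfe2l2: gactagccatTGACGCCGCctc

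None of these 4 genes passed the test between crushed and intact nerves. The windows of Cat and Nqo1, which fell, held no ARE core, and Sod3, which also fell, had no window. A link between ARE cores and the calls was not tested. The NF-κB motif, searched by its degenerate consensus on both strands, was found in 0 of the 9 windows, against 7.51% of all windows. The ARE core can overlap the binding motif of AP-1 factors, which begins with the same bases, and 2 of the 3 GC boxes of Nfe2l2 overlapped each other. A match describes these letters alone, and elements outside the windows were not examined.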

How the data were processed

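RNA-seq data from 3 crushed and 3 intact sciatic nerves were used. The authors deposited 1 table with unnormalized counts per Ensembl gene and nerve, and with FPKM values that the authors scaled by gene length and library size. The submitters' processing notes name HISAT2, StringTie 1.3.0 and the build Rnor_6.0, which is taken as the build of the gene coordinates. The counting program is not given in the sources used here. The methods name TRIzol extraction and RNase R, whereas the labels name a column kit. The part of the RNase R treatment in the counts was not tested. The methods also name an incision on the right but a crush of the left nerve. Titles tied all 12 value columns to nerves, and 0 others were present.

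The members and gene lists were chosen with earlier results of these data known. The quasi-likelihood test of edgeR (version 4.0.16 in R 4.3.3, with limma 3.58.1) was run on the counts of the whole table after TMM scaling and filterByExpr, without a block, and p-values were adjusted with the Benjamini-Hochberg method over 12393 genes. Rose and fell mean an adjusted p under 0.05. Standard errors and 95% intervals came from the test statistic. Ratios of Sod2 were compared with exact permutation tests over nerves (scipy 1.17.1). The correlation with Sod2 used log2(CPM + 0.5).

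Named were the members, Keap1, Nfkbia, Tnfaip3, Birc3 and Icam1, up to 3 genes per list and direction with the smallest p, and the 3 genes most like Sod2. Nfkb1, Nfkb2, Nfkbib, Rel, Ptgs2, Vcam1, Il6, Bach2, Cyba, Ncf4, Mki67 and single cell markers were named after their values were seen. Alternatives were RLE and upper-quartile scaling, DESeq2 (version 1.42.0), no filter, the replicate block, limma on log2(FPKM + 0.1) or log2(FPKM + 1), and each nerve left out. Nothing states that a number marks the same rat or that nerves of a group came from separate rats, so p-values measure the spread between these samples, which may be technical. The floor of 3 counts covers counting error only. The fit was tested on simulated counts, in which 10 of 12090 unchanged genes were called, as were 35 of 100 genes changed by 0.3 and 86 of 98 changed by 1 on the log2 scale. Symbols were matched to older names through RefSeq synonyms.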

Additional observations from a re-analysis of the deposited data

How the results depend on the processing

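The count of 3 called members was kept with DESeq2, RLE scaling, upper-quartile scaling and no filter. It was 1, Cat alone, with limma on log2(FPKM + 0.1), with limma on log2(FPKM + 1) and with the replicate block, and from 1 to 2 when 1 nerve was left out. The cause was not tested, and the fits without 1 nerve also hold fewer nerves. With the block, Sod3 had an adjusted p of 0.0539 and Nqo1 of 0.0567, 300 genes were called in all, against 387, and same-numbered nerves deviated together with correlations between -0.00965 and 0.0709, with only the nerves numbered 3 correlating best with their own number, so the numbers were not taken as a pairing. The called genes over the whole table were 182 higher and 205 lower, or 156 and 86 in the limma fit on log2(FPKM + 0.1), 162 and 94 in that on log2(FPKM + 1), and from 179 to 392 in all without 1 nerve. No member passed the study's limits in any setting. Of the other Nrf2 targets, 3 were called with DESeq2, which called 512 genes in all, and 1 to 2 without 1 nerve. Of the peroxidases and thiol antioxidants, 1 to 2 were called without 1 nerve. The log2 fold change of Hmox1 lay between -0.016 and 0.049 without 1 nerve and that of Gclm between -0.060 and 0.052, and Gclm was 0.010 in both limma fits. With TMM factors the FPKM of Nfe2l2 in crushed nerves was 66.2. The other 8 members kept their direction in all 13 fits, and the 5 ratios of Sod2 kept theirs in the FPKM fit and without any 1 nerve. Small changes are limited by 3 nerves a group.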
